A study of Citrus trifoliata with 2 samples.

Results

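Calcium signalling transcripts were examined in the buds of Citrus trifoliata, the trifoliate orange, which is a deciduous rootstock relative of citrus. Members were the unigenes, that is, transcript models without a genome position, whose Swiss-Prot best hit was a flowering-plant protein with a name of this family. The names were calcium-dependent protein kinase, CBL-interacting, calcineurin B-like, calmodulin, calcium-binding protein CML, cyclic nucleotide-gated or glutamate receptor. This gave 156 of the 35775 unigenes, and the choice used no expression value. The members matched 91 Swiss-Prot entries, of which 33 were hit by several unigenes, so that 98 members shared an entry and could be pieces of 1 transcript or near-identical copies.

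The mutant was the cultivar labelled precocious trifoliate orange, which flowers early, and the wild type was labelled normal trifoliate orange. From 2-year-old trees of both, the terminal bud and the 5 buds beneath it were collected from spring flushes after self-pruning, when flowers are initiated, and no treatment was given. Buds were pooled, poly(A) RNA was sequenced, and each genotype had 1 library. No replicate check was therefore possible, no p-value is given, and every interval is an exact 95% Clopper-Pearson interval that covers counting error only. The labels do not say which gene is mutated.

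Calcium ions act in plant cells as a second messenger. Channels in the membranes let calcium into the cytosol, pumps and exchangers remove it, and sensor proteins with EF-hand motifs bind it in between. Calmodulin and the calmodulin-like (CML) proteins pass the signal on by binding other proteins, calcineurin B-like (CBL) proteins bind and activate the CBL-interacting protein kinases (CIPK), and the calcium-dependent protein kinases (CDPK, called CPK in Arabidopsis) carry sensor and kinase in the same chain. In plants this machinery is known for its part in hormone, cold, drought and nutrient signalling, and the Arabidopsis kinase CPK33 is known to phosphorylate FD, the partner of the flowering signal FT.

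Counted in units of 1000, the libraries held 10037 (mutant) and 9995 (wild type) reads on unigenes. Levels are given as reads or as RPKM, which are reads scaled to unigene length and library total. The difference between libraries is given as log2((mutant RPKM + 1) / (wild-type RPKM + 1)), called the log2 ratio below, and a ratio of 1 or more in either direction is called 2-fold. The added 1 shrinks the ratio of unigenes with low levels, so for named unigenes the fold of the read shares is given too. A unigene was kept when its RPKM reached 1 in either library, which held for 146 members and 34255 unigenes in all. The 10 members below that limit were 5 cyclic nucleotide-gated channels, 3 CDPKs, 1 CIPK and 1 CML protein, with between 0 and 14 reads in either library. In bulk buds, fewer cells of a type and less RNA per cell cannot be told apart.

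The log2 ratio of all unigenes shifted along the numbering of the deposited table, and most of the members past 2-fold lie in the shifted ranges. Sharp falls in unigene length along the numbering divide the table into 8 blocks. Among all kept unigenes the median log2 ratio was 0.02 for numbers below 18201 (the low numbers), 0.66 for 18201 to 28013 (the middle numbers) and −0.55 for 28014 to 36523 (the high numbers). Kept members followed the same order, with medians of 0.01 over 98 low-numbered, 0.50 over 30 middle-numbered and −0.81 over 18 high-numbered unigenes. The part of the numbering in the results below was not tested, and a single unigene named below has a low number unless another range is stated. Entries summed over several unigenes can span the ranges. Members were longer than unigenes in general, with a median of 912.5 bases against 547, and 62.8% of them had low numbers, against 50.9% of all unigenes.

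**Figure D1:**
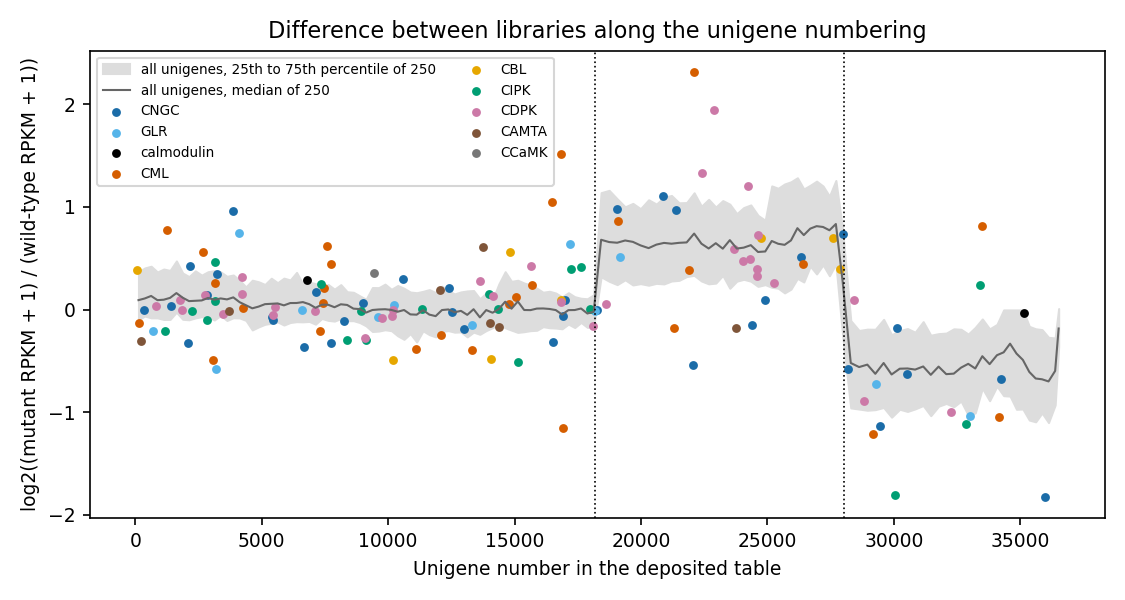
Log2 ratio of each kept calcium signalling unigene (coloured points, by class) against its number in the deposited table, with the median and the 25th to 75th percentile of all unigenes in windows of 250 (grey); dotted lines mark numbers 18201 and 28014. Members between the lines lay mostly above 0 and members beyond 28014 mostly below 0, as did the unigenes around them.

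As a group the calcium signalling unigenes were at nearly the same level in both libraries. Summed over all 156, there were 69876 mutant and 68391 wild-type reads, 1.02-fold (1.01 to 1.03). Scaling by the trimmed mean of M-values (TMM) turned this to 0.987-fold, so the sum has no stable direction. The median log2 ratio of the 146 kept members was 0.04, that of all unigenes 0.05, and 111 of the 146 were within 1.5-fold.

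Of the 146 members, 7 (4.79%) were 2-fold or more above the wild type, while among all kept unigenes 8.61% were. A further 8 (5.48%) were 2-fold or more below it, and among all kept unigenes 5.31% were. Neither share of the members stood above its background by more than 1 percentage point. Of the 15 members past 2-fold, 12 had middle or high numbers, namely all 5 of the middle-numbered ones on the higher side and all 7 of the high-numbered ones on the lower side. Among all unigenes of the middle numbers 29.3% were higher and 0.298% lower, and among those of the high numbers 0.817% were higher and 23.0% lower. The 3 others had low numbers, where only 1.82% of the unigenes were 2-fold higher and 0.544% were 2-fold lower. All 3 had CML best hits, at E-values of 7e-48, 1e-07 and 1e-09. Of the 98 members with at least 100 reads over both libraries, 2 were 2-fold higher and 2 lower, with backgrounds of 1.86% and 0.517% among all unigenes read as deeply.

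By the counting interval alone, 37 members were higher in the mutant library, 25.3% of those kept, with a background of 19.8%, and 30 were lower, 20.5%, with a background of 14.4%. At least 100 reads over both libraries were found for 62.8% of the members and 46.0% of all unigenes. Over the 98 members with at least 100 reads, 30 (30.6%) were higher and 23 (23.5%) lower, with backgrounds of 24.6% and 19.3% among all unigenes read as deeply. The part of depth in the counts over all members was not tested.

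**Figure D2:**
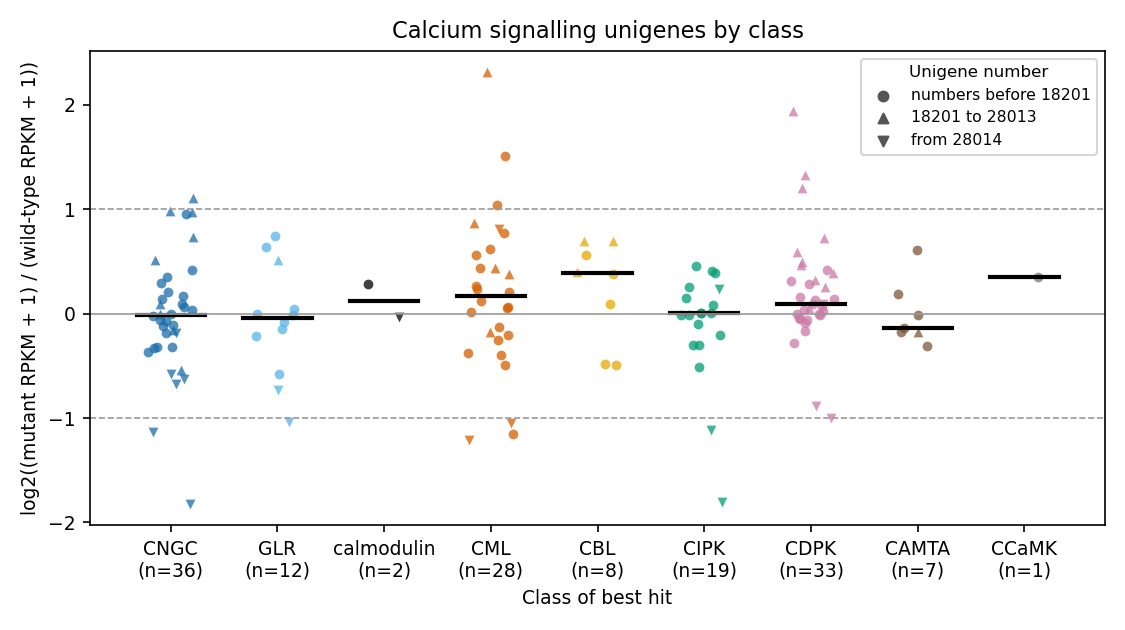
Log2 ratio of the 146 kept members by class of best hit, 1 point per unigene, with the class median as a black bar; the marker shape gives the range of unigene numbers and dashed lines mark 2-fold. Class medians lay between −0.13 and 0.39, and the low-numbered members (circles) past a dashed line were 3 unigenes with CML best hits.

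Cyclic nucleotide-gated channels (CNGC) are cation channels of plant membranes with a calmodulin-binding region, and they were the largest class with 41 unigenes, of which 36 were kept. Their median log2 ratio was −0.02. Of the 36, 1 (2.78%) was 2-fold higher and 2 (5.56%) were 2-fold lower, with 8.61% and 5.31% among all kept unigenes. Summed reads were 12704 (mutant) and 13348 (wild type), 0.948-fold (0.925 to 0.971). The slightly lower sum came from the channels other than CNGC1.

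The best hits to CNGC2 and CNGC4, which in Arabidopsis are needed for calcium entry in immune signalling, were among the most abundant channels. Their 7 unigenes, all low-numbered, held 6641 mutant reads and 7277 wild-type reads together, 0.909-fold (0.879 to 0.940). For CNGC4, Unigene6656 had 899 mutant and 1153 wild-type reads and Unigene7726 had 988 and 1233, while Unigene5459 had 426 and 457. Unigene17007, with the same best hit, had 1856 mutant and 1733 wild-type reads, so the CNGC4 pieces did not all lean the same way. For CNGC2, Unigene2071 had 400 mutant and 503 wild-type reads, 1.26-fold lower (1.11 to 1.44), Unigene8252 had 1088 and 1173, and Unigene16911 had 984 and 1025.

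CNGC1 was the best hit of 19 unigenes, 333 to 2611 bases long, and these differed widely among themselves. Together they held 2977 mutant and 2956 wild-type reads, 1.003-fold (0.953 to 1.06), with 3 not kept. Of the 16 kept, the intervals of 6 (37.5%) lay above 1 and of 2 (12.5%) below 1, with 19.8% and 14.4% among all kept unigenes. Unigene3859 had 138 mutant and 64 wild-type reads, 2.15-fold (1.59 to 2.94), with a log2 ratio of 0.95. Unigene16514, the most abundant of the 19, had 1304 mutant and 1619 wild-type reads, 1.25-fold lower (1.16 to 1.34). Both have low numbers.

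The other CNGC1 hits with intervals above 1 were spread over the numbering. Unigene2159 had 293 mutant and 214 wild-type reads, and Unigene3236 had 267 and 205. Unigene12390, the longest, had 455 and 388. In the middle numbers, Unigene27977 had 80 mutant and 42 wild-type reads, and Unigene20857, the only channel 2-fold higher, had 21 and 7 (2.99-fold, 1.22 to 8.32). Short high-numbered Unigene35983 had 3 mutant and 19 wild-type reads, 6.36-fold lower (1.87 to 33.6).

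Of the remaining channels, CNGC5 and CNGC6, each hit by 2 low-numbered unigenes, were level. CNGC5 had 2285 mutant and 2232 wild-type reads in all, 1.02-fold (0.961 to 1.08), and CNGC6 had 452 and 459. CNGC17 had 198 mutant and 189 wild-type reads over its 2 unigenes. For CNGC14, with 15 and 9 reads over 2 unigenes (1.66-fold, 0.680 to 4.30), a difference was not detectable at this depth. On the lower side, high-numbered Unigene29466, a CNGC3 hit, had 20 mutant and 54 wild-type reads, 2.71-fold lower (1.60 to 4.78). CNGC20 had 61 and 113 reads in high-numbered Unigene34224 and 14 and 14 in middle-numbered Unigene22953, which was not kept.

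Glutamate receptor-like proteins (GLR) are ligand-gated cation channels, and in Arabidopsis GLR3.3 and GLR3.6 carry the wound signal from leaf to leaf. All 12 unigenes were kept. Beside 8.61% and 5.31% of all kept unigenes, none of the 12 was 2-fold higher and 1 (8.33%) was 2-fold lower. Their median log2 ratio was −0.04, and the summed reads, 5096 mutant and 5064 wild-type, gave 1.002-fold (0.964 to 1.04), and 0.972-fold under TMM scaling.

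The wound-signal receptors were level. GLR3.3 had 873 mutant and 917 wild-type reads over 2 unigenes, and GLR3.6 had 1048 and 1056. The most abundant receptor by reads was GLR3.7 (Unigene13305), with 1765 mutant and 1953 wild-type reads, 1.11-fold lower (1.04 to 1.19).

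GLR2.7 and GLR3.4 gave the largest differences among receptors with low numbers. The GLR2.7 hit Unigene17183, 2665 bases long, had 782 mutant and 492 wild-type reads, 1.58-fold (1.41 to 1.78). For GLR3.4, Unigene4095 had 284 mutant and 166 wild-type reads, 1.70-fold (1.40 to 2.08), while the longer Unigene3199 had 128 and 200, 1.57-fold lower (1.25 to 1.97). These 2 unigenes share a best hit and their intervals lay on opposite sides of 1, with 447 mutant and 387 wild-type reads for the entry, middle-numbered Unigene19152 included.

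In the high numbers 2 receptors were lower. GLR3.5 (Unigene33009) had 19 mutant and 52 wild-type reads, 2.75-fold lower (1.60 to 4.92). GLR3.2 (Unigene29316) had 45 and 95, 2.12-fold lower (1.47 to 3.09), whereas low-numbered Unigene10239, also closest to GLR3.2, had 117 and 112.

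Calmodulin, the general EF-hand sensor, was the most abundant member by RPKM. Unigene35150, a piece of 245 bases closest to spinach calmodulin, stood at 605 RPKM in the mutant and 621 in the wild type, 0.975-fold (0.907 to 1.05). It has a high number, where the median unigene was lower in the mutant library, yet it was level. Unigene6792, closest to lily calmodulin, had 695 mutant and 567 wild-type reads, 1.22-fold (1.09 to 1.37). Calmodulin is so conserved between species that these pieces may come from several genes, and the sources used here do not give how shared reads were counted.

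**Figure D3:**
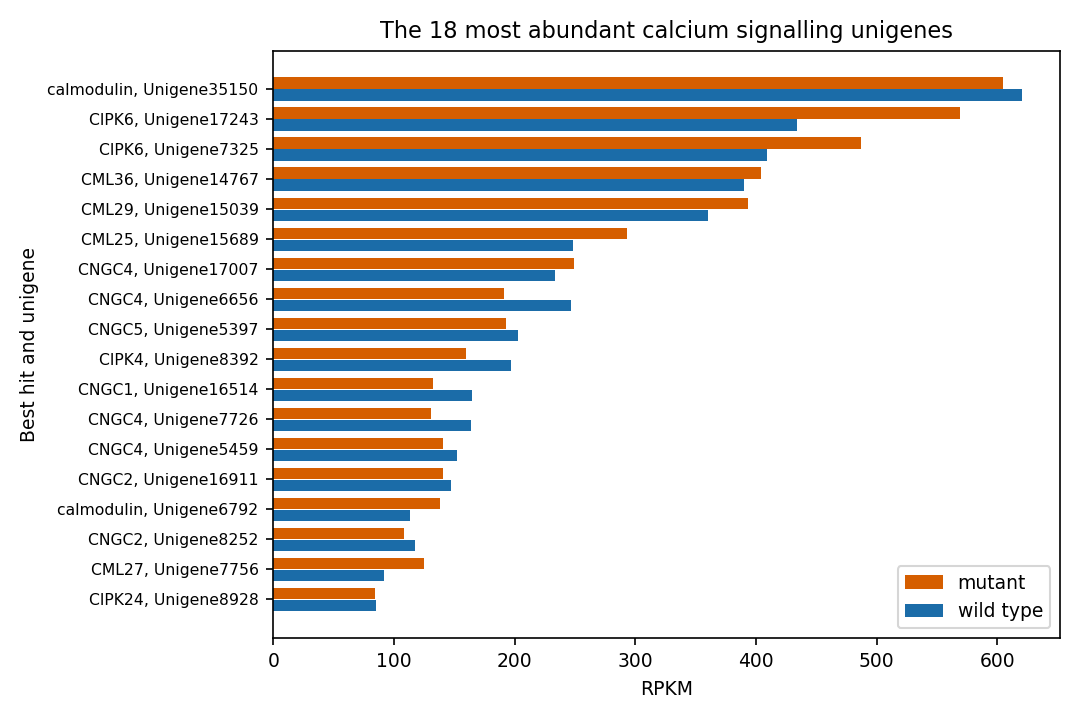
RPKM of the 18 most abundant members in the mutant (orange) and wild-type (blue) library, 1 bar per library, labelled by best hit and unigene. No pair differs 2-fold; the bars of the CIPK6 unigenes and of CML27 are longer in the mutant, and those of CIPK4 and of CNGC4 Unigene6656 are longer in the wild type.

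CML proteins are plant-specific relatives of calmodulin, many of which respond to stress, and they held the 3 low-numbered members past 2-fold. Among all kept unigenes 8.61% were 2-fold higher and 5.31% were 2-fold lower. Of the 29 CML unigenes 28 were kept, 3 (10.7%) were 2-fold higher and 3 (10.7%) were 2-fold lower. The median log2 ratio was 0.17, and 0.10 over the 20 low-numbered unigenes. Summed reads were 9567 (mutant) and 9147 (wild type), 1.04-fold (1.01 to 1.07).

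CML41, which in Arabidopsis localises to plasmodesmata and promotes their closure in immunity, was higher in the mutant. Unigene16850 had 242 mutant and 80 wild-type reads, or 33.7 and 11.2 RPKM, 3.01-fold (2.33 to 3.93) with a log2 ratio of 1.51. This was the largest ratio among the 98 members with at least 100 reads.

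Unigene16476 had 279 mutant and 132 wild-type reads, 49.4 and 23.5 RPKM, 2.10-fold (1.71 to 2.61). Its best hit was CML9, an Arabidopsis protein of salt and abscisic acid responses, but at an E-value of only 1e-07, so the name is weak. The same caution holds for Unigene16923, which hit CML5 at 1e-09. That unigene had the lowest log2 ratio among members with at least 100 reads, −1.15, with 314 mutant and 705 wild-type reads, 43.9 and 98.9 RPKM, 2.25-fold lower (1.97 to 2.58).

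CML5 was the best hit of 3 low-numbered unigenes that went different ways. Unigene1257 had 113 mutant and 61 wild-type reads, 1.84-fold (1.34 to 2.56), with the strongest match of the 3. Unigene12082 had 491 and 584, 1.19-fold lower (1.06 to 1.35). Added to Unigene16923, the entry had 918 mutant and 1350 wild-type reads, a sum that mixes unlike members.

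The most abundant CML proteins were close to level. CML36 (Unigene14767) stood at 404 RPKM in the mutant and 390 in the wild type, 1.04-fold (0.982 to 1.09), rice CML29 (Unigene15039) at 393 and 360, and CML25 (Unigene15689) at 293 and 248. CML27 (Unigene7756) had 958 mutant and 702 wild-type reads, 1.36-fold (1.23 to 1.50). CML45 (Unigene7601) had 201 and 128, 1.56-fold (1.25 to 1.97), and CML44 had 193 and 141 over 3 unigenes, 1.36-fold (1.09 to 1.71). On the lower side, CML49 (Unigene13311) had 497 and 656 reads, 1.33-fold lower (1.18 to 1.49), and CML21 (Unigene3080) had 79 and 116, 1.47-fold lower (1.098 to 1.99). CML13 (Unigene7406), with 473 mutant and 449 wild-type reads, did not differ beyond counting error. CML27, CML45, CML44, CML49, CML21 and CML13 were chosen after their values were seen.

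The other 3 CML unigenes past 2-fold had 10, 14 and 105 reads over both libraries and numbers in the shifted ranges. Middle-numbered Unigene22082, closest to Arabidopsis calmodulin-like protein 11, had 10 mutant reads and 0 wild-type reads, at least 3.32-fold higher when 0 is replaced by a floor of 3 reads (lower limit of the exact interval, 2.23). High-numbered Unigene29166, closest to rice CML11, had 2 mutant and 12 wild-type reads. Low-numbered Unigene2667, with the same best hit, had 55 and 34, so the entry as a whole had 57 and 46. High-numbered Unigene34144, a calmodulin-like protein 1 hit, had 32 and 73 reads, 2.29-fold lower (1.49 to 3.59), while Unigene4252 with the same best hit had 115 and 113, and middle-numbered Unigene21316 had 88 and 100.

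**Figure D4:**
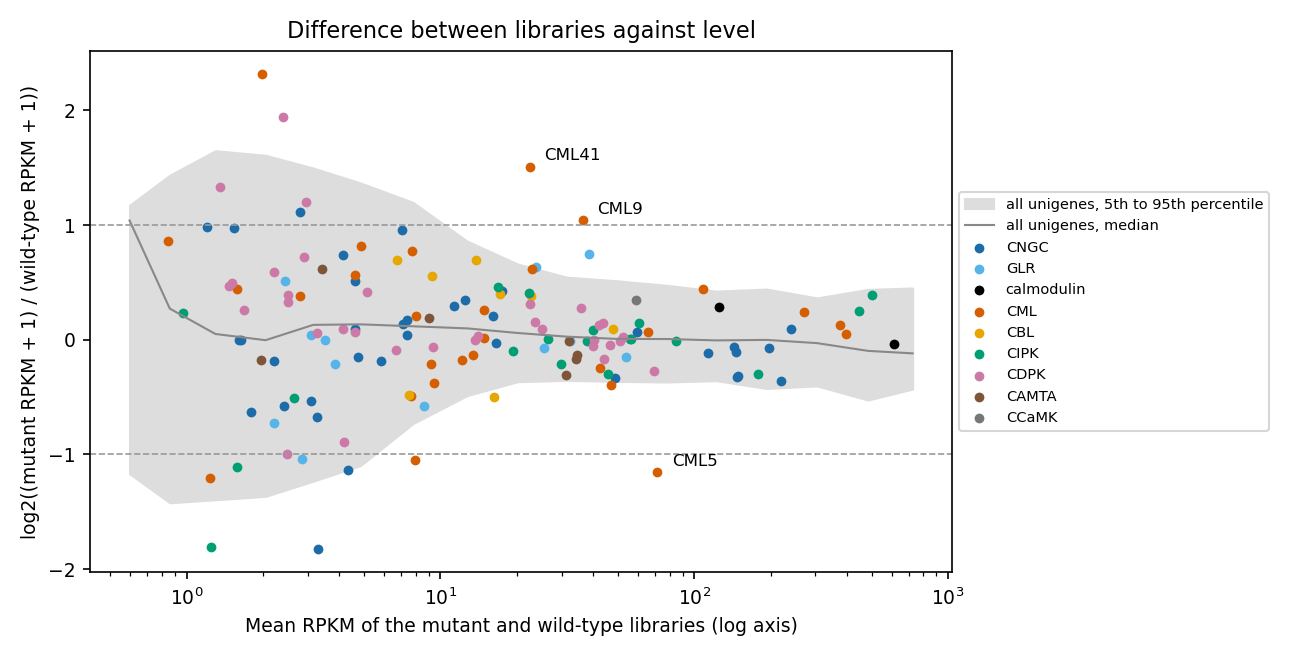
Log2 ratio of the kept members against their mean RPKM over both libraries (log axis), coloured by class, over the median and the 5th to 95th percentile of all unigenes of like level (grey). Unigenes hitting CML41 and CML9 lie above the grey band and the CML5 hit at 314 and 705 reads lies below it, while most members past 2-fold lie at low levels where the band is wide.

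CBL proteins are membrane-anchored EF-hand sensors. Of 8 unigenes, all kept and with at least 100 reads, none was past 2-fold. Among all unigenes read as deeply 1.86% were 2-fold higher and 0.517% were 2-fold lower. The intervals of 5 of the 8 CBL unigenes (62.5%) lay above 1 and of 2 (25%) below 1, with 24.6% and 19.3% among all unigenes read as deeply. Over the 5 low-numbered ones, 2 lay above 1 and 2 below. The median log2 ratio of the 8 was 0.39, the largest of any class with more than 1 unigene, but it was 0.09 over the 5 low-numbered ones. Summed reads were 1249 (mutant) and 1128 (wild type), 1.103-fold (1.02 to 1.20), and over the low numbers 964 and 940, 1.02-fold (0.933 to 1.12).

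Among low-numbered CBLs, CBL10 and CBL1 differed in opposite directions. CBL10 (Unigene14816), which in Arabidopsis acts with CIPK24 in salt tolerance of the shoot, had 119 mutant and 77 wild-type reads, 1.54-fold (1.15 to 2.08). CBL1 (Unigene10182), which with CBL9 activates CIPK23 in Arabidopsis potassium uptake, had 159 and 228, 1.44-fold lower (1.17 to 1.77). The rice CBL7 hit Unigene48 had 270 mutant and 204 wild-type reads, 1.32-fold (1.09 to 1.59).

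The middle-numbered CBLs were all higher, as most unigenes of that range were. CBL4, the SOS3 protein of Arabidopsis salt tolerance, had 71 mutant and 42 wild-type reads in Unigene27585, 1.68-fold (1.13 to 2.53). The rice CBL9 hit Unigene24741 had 77 and 44, 1.74-fold (1.19 to 2.58). For CBL3, a sensor of the vacuolar membrane, middle-numbered Unigene27863 had 137 and 102 reads, and of the low-numbered rice CBL3 hits Unigene14066 had 82 and 119 and Unigene16853, the CBL unigene with the highest RPKM, had 334 and 312.

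CIPKs are the kinases that CBL proteins switch on, and they had the most reads of any class. Their 20 unigenes, 19 kept, summed to 19948 mutant and 18657 wild-type reads, 1.06-fold (1.04 to 1.09). The median log2 ratio was 0.00. None was 2-fold higher and 2 (10.5%) were 2-fold lower, with 8.61% and 5.31% among all kept unigenes. The higher sum came from CIPK6.

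CIPK6, which in Arabidopsis works with CBL4 to bring the potassium channel AKT2 to the plasma membrane, had the most reads of the class. Unigene17243 had 5030 mutant and 3817 wild-type reads, 1.31-fold (1.26 to 1.37), and Unigene7325 had 3025 and 2529, 1.19-fold (1.13 to 1.26). Both pieces leaned the same way, to 8055 mutant and 6346 wild-type reads, 1.26-fold (1.22 to 1.31).

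CIPK8 and CIPK3, kinases of nitrate and of abscisic acid and cold signalling in Arabidopsis, were also higher. CIPK8 (Unigene3137) had 365 mutant and 259 wild-type reads, 1.40-fold (1.19 to 1.65), and CIPK3 (Unigene17618) had 523 and 387, 1.35-fold (1.18 to 1.54). CIPK4 (Unigene8392) had 2295 and 2818, 1.23-fold lower (1.17 to 1.30), and the rice CIPK2 hit Unigene9124 had 895 and 1102, 1.24-fold lower (1.13 to 1.35). The salt tolerance kinase CIPK24 (SOS2) was level at 1427 mutant and 1432 wild-type reads, 0.992-fold (0.922 to 1.07), and CIPK23 was at 948 and 887. CIPK2, CIPK23 and CIPK24 were chosen after their values were seen.

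The CIPKs past 2-fold were both pieces of rice CIPK5 with high numbers. Unigene30044 had 0 mutant and 6 wild-type reads, at least 2.01-fold lower with the same floor (lower limit of the exact interval, 1.18). Unigene32858 had 3 and 12, 4.02-fold lower (1.08 to 22.2). Another piece, middle-numbered Unigene20350, had 1 mutant and 0 wild-type reads and was not kept.

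CDPKs numbered 36 unigenes, 33 of them kept, with a median log2 ratio of 0.10. Summed reads were 12501 (mutant) and 12317 (wild type), 1.01-fold (0.986 to 1.04), and 0.980-fold under TMM scaling. The 3 unigenes (9.09%) that were 2-fold higher all had middle numbers and at most 13 reads in a library, and none was 2-fold lower. Among all kept unigenes 8.61% were 2-fold higher and 5.31% were 2-fold lower. Of the 19 low-numbered CDPKs none was past 2-fold, with 1.82% higher and 0.544% lower among all low-numbered unigenes. The log2 ratios of these CDPKs ran from −0.28 to 0.42 with a median of 0.02.

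The abundant CDPKs were close to level. The hit to carrot CDPK, Unigene9066, had the highest RPKM, 62.9 in the mutant and 76.4 in the wild type, 1.21-fold lower (1.13 to 1.31). CPK16 (Unigene5541) had 1206 mutant and 1182 wild-type reads, and CPK8 (Unigene7098) had 1118 and 1123. CPK4 (Unigene4231), which acts in abscisic acid signalling in Arabidopsis, had 513 and 407, 1.26-fold (1.0999 to 1.43), and the soybean SK5 hit Unigene13617 had 735 and 599, 1.22-fold (1.095 to 1.36). CPK1, with 953 and 1058 reads over 3 unigenes, was 1.11-fold lower (1.02 to 1.22), and CPK3, with 955 and 855 over 2, was 1.11-fold higher (1.01 to 1.22).

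CPK33, the FD kinase of Arabidopsis, did not differ beyond counting error in any of its 3 low-numbered unigenes. Unigene5462 had 307 mutant and 318 wild-type reads, Unigene9749 had 122 and 130, and Unigene10151 had 109 and 114. Together they gave 538 and 562, 0.953-fold (0.845 to 1.07).

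The CDPKs past 2-fold had few reads. A CPK17 hit (Unigene22875, E-value 1e-08) had 11 mutant reads and 1 wild-type read, 11.0-fold (1.59 to 471). A piece of CPK9 (Unigene24238) had 13 and 4, and a piece of CPK1 (Unigene22399) had 7 and 1, and the intervals of both included 1 (0.9998 to 13.6 and 0.896 to 314). Over all 4 CPK9 unigenes there were 67 mutant and 50 wild-type reads, 1.33-fold (0.911 to 1.96). CPK29 shows how the number of a unigene went with its direction. Its middle-numbered Unigene24308 and Unigene24579 had 18 and 10 and 25 and 17 reads, while high-numbered Unigene32263 had 11 mutant and 30 wild-type reads, with a log2 ratio of −0.995, just short of 2-fold, and the entry had 59 and 64.

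A hit to rice calcium/calmodulin-dependent serine/threonine-protein kinase 1 (CAMK1) was found as Unigene9433, which is low-numbered. It had 1672 mutant and 1300 wild-type reads, 1.28-fold (1.19 to 1.38), at 66.4 and 51.9 RPKM.

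Calmodulin-binding transcription activators (CAMTA) bind calmodulin and DNA, and CAMTA3 is known in Arabidopsis for cold responses and for restraining immunity. None of the 7 unigenes was past 2-fold, with 8.61% higher and 5.31% lower among all kept unigenes. Of the 7, 6 had low numbers, where 1.82% of all unigenes were higher and 0.544% lower. The median log2 ratio of the 7 was −0.13, and the summed reads, 4956 mutant and 5343 wild-type, were the lowest ratio of any class at 0.924-fold (0.888 to 0.960).

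Most CAMTAs leaned slightly lower in the mutant. CAMTA4 (Unigene206) had 962 mutant and 1196 wild-type reads, 1.25-fold lower (1.15 to 1.36), CAMTA3 (Unigene14384) had 1084 and 1220, 1.13-fold lower (1.04 to 1.23), and CAMTA5 (Unigene14028) had 1075 and 1178, 0.909-fold (0.836 to 0.988). CAMTA2 was an exception, with 1129 and 1135 reads in Unigene3723 and 596 and 513 in Unigene12041, 1.16-fold (1.03 to 1.30). A shorter CAMTA4 piece, Unigene13769, also went the other way with 49 and 28 reads, 1.74-fold (1.07 to 2.88).

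**Figure D5:**
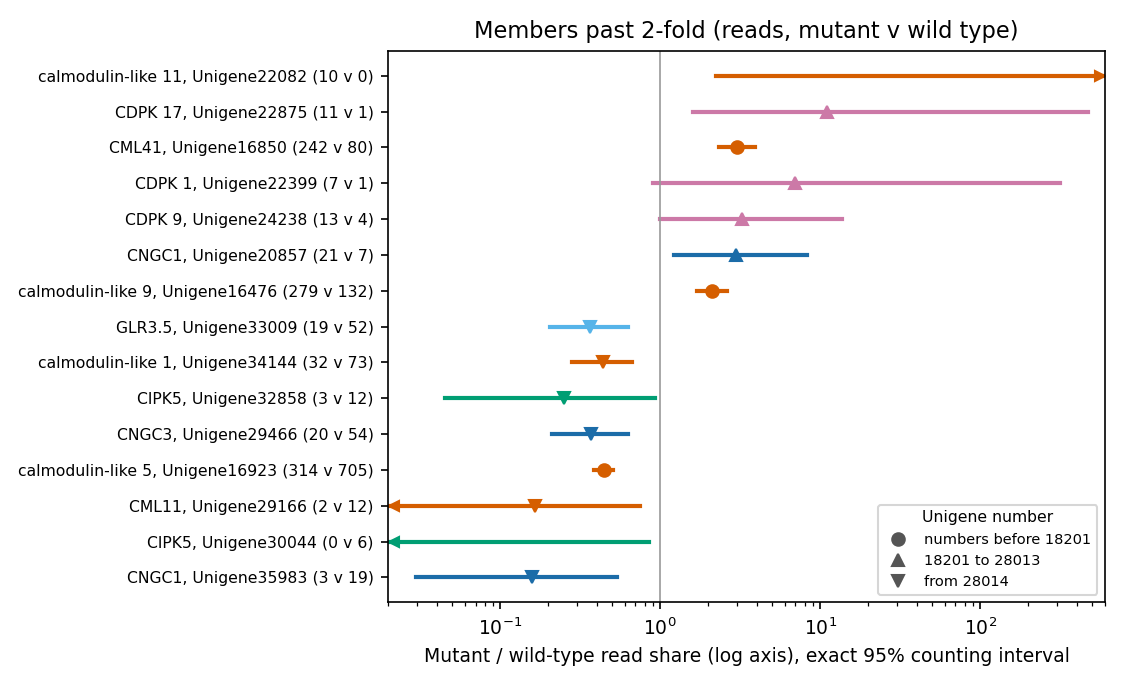
Ratio of mutant to wild-type read shares for the 15 members past 2-fold, with exact 95% counting intervals (log axis) and the reads of both libraries beside each name; marker shapes give the range of unigene numbers, and arrows mark intervals that run off the axis. The narrow intervals belong to the CML41, CML9 and CML5 hits with low numbers, and the widest ones to unigenes with few reads.

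Unigenes that share a Swiss-Prot entry did not always go together. Of the 33 entries hit by several unigenes, 5 had unigenes with intervals above 1 and below 1 under the same name. These were CNGC1, GLR3.4, CML5, rice CML11 and CAMTA4. The like share over all Swiss-Prot entries was not computed.

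Genes around the calcium signal that the choice of names left out were listed from words in the annotation, 121 unigenes in all, of which 118 were kept. At least 2-fold higher were 11 (9.32%) and at least 2-fold lower 4 (3.39%), with 8.61% and 5.31% among all kept unigenes, and the median log2 ratio was 0.22. Pumps and exchangers, which clear calcium from the cytosol, had 7 higher (13.0%) and 2 lower (3.70%) of 54 kept, a median of 0.25, and 17206 mutant and 14953 wild-type reads, 1.15-fold (1.12 to 1.17). All 7 higher ones had middle numbers and both lower ones high numbers, where 29.3% and 23.0% of all unigenes were so. By the counting interval 16 (29.6%) were higher and 3 (5.56%) lower, with 19.8% and 14.4% among all kept unigenes. Among pumps with at least 50 reads, the plasma-membrane pump 3 hit Unigene2238 had 42 mutant and 22 wild-type reads, 1.90-fold (1.11 to 3.34), a weak match at 4e-07. The endoplasmic-reticulum pump 4 hit Unigene4085 had 58 and 33, 1.75-fold (1.12 to 2.77). Many more reads were on exchanger CAX3 Unigene4508, with 3616 and 2860, and pump ECA1 Unigene696, with 2428 and 1590. Pump ACA1 Unigene10692 went the other way with 1678 and 2006.

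Other channels and carriers comprised 7 unigenes with a median of 0.44 and 11257 mutant against 8740 wild-type reads, 1.28-fold (1.25 to 1.32). Most of these reads were on hits to annexins, which are calcium-binding membrane proteins. Annexin D1 Unigene17264 had 5841 mutant and 4279 wild-type reads, and annexin D2 Unigene6226 had 2433 and 1789. Annexin D5 Unigene5538 had 784 and 750, and annexin D5 Unigene7013 was lower with 491 and 561. The annexin D2 hit Unigene13736 had 218 mutant and 92 wild-type reads, 2.36-fold (1.84 to 3.04). The channel hit TPC1A Unigene11010 had 988 and 917, 1.07-fold (0.980 to 1.18). TPC1 (Unigene16244), the slow channel of the vacuolar membrane, had 502 and 352, 1.42-fold (1.24 to 1.63). All unigenes of this list have low numbers.

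Store proteins, which bind calcium in the endoplasmic reticulum, were all slightly higher, with 7 of 7 log2 ratios positive, between 0.11 and 0.32. Among all kept unigenes 18436 of 34255 were positive. The 7 unigenes hit 4 Swiss-Prot entries, so some could be pieces of 1 transcript. Together they had 9283 mutant and 8097 wild-type reads. Calreticulin-3 (Unigene5854) had 1075 mutant and 856 wild-type reads, 1.25-fold (1.14 to 1.37), and calreticulin (Unigene5073) had 976 and 799, 1.22-fold (1.11 to 1.34). None reached 2-fold.

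Other regulators, 28 kept unigenes, had 2 higher (7.14%) and 1 lower (3.57%), with 8.61% and 5.31% among all kept unigenes. These regulators had a median of 0.04 and 1.004-fold summed reads (0.972 to 1.04), which TMM scaling made 0.974-fold. The CDPK-related kinase hit Unigene9395, with low number, had 56 mutant and 16 wild-type reads, 3.49-fold (1.97 to 6.51), and IQ-DOMAIN 1 (Unigene34208, high number) had 21 and 55, 2.63-fold lower. Targets of the calcium kinases, 22 kept, had 1 higher (4.55%) and 1 lower (4.55%), with the same backgrounds. Their median was 0.24, with 8509 mutant against 8841 wild-type reads, 0.958-fold (0.930 to 0.987), so the median and the sum differed in sign. The most abundant target, the respiratory burst oxidase RBOHE hit Unigene7951, had 1535 mutant and 2222 wild-type reads, 1.45-fold lower (1.36 to 1.55). RBOHF (Unigene10493), a respiratory burst oxidase that CDPKs and CIPKs phosphorylate in Arabidopsis, had 159 and 90 reads, 1.76-fold (1.35 to 2.30). The KAT3 potassium channel subunit (Unigene10063) had 45 and 28, 1.60-fold (0.977 to 2.66).

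Tissue markers were present in both libraries, and their part in the results above was not tested. The shoot meristem list was taken by name and held WUSCHEL-related homeobox 4, 8 and 13 and many CLAVATA1 best hits. Whether each of these marks the meristem in these buds was not tested. Its 32 unigenes summed to 371 RPKM in the mutant and 323 in the wild type, of which WUSCHEL-related homeobox 13 Unigene16989 alone had 78.5 and 78.4. Of the 32, 1 was at least 2-fold higher and 3 at least 2-fold lower, with 8.61% and 5.31% among all kept unigenes. The higher one had a middle number and the 3 lower ones high numbers, where 29.3% and 23.0% of all unigenes were so. Of the 32 unigenes, 0 had no read in the mutant and 1 had none in the wild type. Among them SHOOT MERISTEMLESS had 136 mutant and 163 wild-type reads in Unigene27959 and 1 and 8 in Unigene33575, and AINTEGUMENTA had 357 and 182 in Unigene9678 and 5 and 13 in Unigene33719. Leaf mesophyll markers summed to 7147 and 7815 RPKM over 23 unigenes, phloem markers to 601 and 498 over 18, and pollen markers to 655 and 466 over 8. The 3 xylem unigenes, all hits to xylem cysteine proteinase 1, summed to 178 and 65.9 RPKM, which Unigene5337 carried with 177 and 58.8, while Unigene32725 had 4 and 33 reads and Unigene33427 had 5 and 12, and their median log2 ratio was −0.85. No phloem, pollen or xylem marker unigene lacked reads in either library, and 1 mesophyll unigene lacked them in the mutant. Fungal proteins were the best hits of 833 unigenes, with a median log2 ratio of 0.01, and none of these is a member.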

How the data were processed

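Per the file headers, the authors deposited, for each unigene and library, a raw read count and an RPKM value, and the unigene length in bases, which is of another kind (other). RPKM recomputed from the deposited counts, lengths and totals matched 100% of the values within 1e-04 in both libraries. Not given in the sources used here are how the unigenes were assembled, how reads were aligned, filtered and counted, and whether strand was used, so counts of family members that share reads are uncertain. Names come from the table's Swiss-Prot best hits, present for 18809 unigenes; 132 member hits were Arabidopsis, 16 rice and 8 other plants, and 12 had E-values above 1e-10. A best hit is the nearest protein listed and need not be an ortholog. Unigene sequences were not used here.

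Computed from these were log2 ratios with a pseudocount of 1 RPKM, a minimum of 1 RPKM in either library, a 2-fold threshold, and ratios of read shares with exact Clopper-Pearson intervals at the 95% level (Python 3.11.15, scipy 1.17.1). The intervals cover counting error only, since each genotype had 1 library. PCR copies are not independent molecules, so even for counting error the intervals can be too narrow. Only for folds given as at least was a library with 0 reads set to a floor of 3 reads. The log2 ratios, 2-fold calls, intervals and sums used the 0. TMM factors (edgeR 4.0.16) were 1.015 for the mutant and 0.985 for the wild type; no count model was fitted, since each group had 1 library. Number blocks were found from unigene length, with a window of 200. The calculation was tested on simulated data.

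The members and lists were chosen with earlier results of these data known. The named unigenes were, per class, those past 2-fold, the 3 with the highest mean RPKM and the 3 with the largest ratio among those with at least 100 reads, with all unigenes of repeated entries, and in other lists the 2 with the largest ratio among those with at least 50 reads. Other named unigenes were chosen after their values were seen. Alternatives were other pseudocounts (0.1 and 5), minima and thresholds, centring, TMM scaling, at least 100 reads and at least 500 bases. Further ones were E-values of at most 1e-10, the first 2 blocks, the longest unigene per entry and, added after seeing the data, the first 4 blocks.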

Additional observations from a re-analysis of the deposited data

How the results depend on the processing

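No paired analysis was possible because each group had 1 library, and for the same reason no replicate could be left out; depth limits what can be said of the 58 members with under 100 reads. The count of members 2-fold higher, 7 with the settings of the report, was 11 with a pseudocount of 0.1, 4 with the longest unigene per entry, 3 with at least 500 bases, 2 with a minimum of 5 RPKM, a minimum of 100 reads or the first 4 blocks of numbers (chosen after seeing the data), 1 for a pseudocount of 5 or a 4-fold threshold and 0 in the first 2 blocks. The count 2-fold lower, 8 with the settings of the report, was 5 with at least 500 bases, 4 with the minimum of 5 RPKM, 3 with the longest unigene per entry, 2 with that minimum of reads, 1 for a pseudocount of 5 or the first 4 blocks and 0 with a 4-fold threshold or the first 2 blocks. By the counting interval in place of the 2-fold threshold, the counts were 37 higher and 30 lower. Several of these settings also left fewer unigenes or set a stricter threshold, and the cause of the moves was not tested. The median log2 ratio of the members stayed between −0.01 and 0.06 over the alternatives run, and that of store proteins was 0.095 after centring and 0.099 with TMM. Under TMM the ratio of summed reads, mutant over wild type, was 0.987 for the members, which turned its direction, 0.919 for CNGC, 1.01 for CML, 1.03 for CIPK, 0.980 for CDPK, 1.11 for pumps and exchangers, 1.24 for other channels, 1.11 for store proteins and 0.929 for kinase targets. In the first 2 blocks, with fewer unigenes, it was 0.990 for the members and 0.979 for CIPK, which both turned, 1.11 for GLR, 1.19 for CML, 1.32 for CBL, 1.26 for pumps, 1.19 for other channels and 0.929 for kinase targets. With the longest unigene per entry it was 1.03 for the members, 1.09 for CML and 1.09 for store proteins. Sums whose interval included 1 also crossed 1: under TMM GLR (0.972), CDPK (0.980, above) and other regulators (0.974), and in the first 2 blocks CDPK (0.998) and other regulators (0.995). Of 701 values under alternatives, 524 stayed within 1.5 times the count or within the interval of the median or sum, 174 moved further, and the 3 sums named as turned, whose intervals excluded 1, changed side.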

Other observations

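Among the unigenes with a name of this family, 2 had best hits outside plants and were not members. Unigene5436, closest to a protein kinase of a sea hare at an E-value of 1e-08, had 22 mutant and 28 wild-type reads. Unigene5746, closest to a chicken photoreceptor channel at 6e-07, had 425 mutant and 482 wild-type reads. Which organism either comes from was not tested.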
